A study of Mus musculus with 6 samples.

Results

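Genes that mark cardiac fibroblasts were followed in endothelial cells (ECs) sorted from embryonic mouse hearts. They were taken by symbol from the gene table, which held 10 of 10 of them among 55416 genes, and all 10 passed the filter on low counts that left 16296 genes to be tested. The members were *Dcn*, *Lum*, *Postn*, *Dpt*, *Cthrc1* and *Pamr1*, which encode secreted proteins, *Dkk3*, a secreted relative of the Dickkopf Wnt antagonists, *Rcn3*, a protein of the endoplasmic reticulum, *Gsn*, an actin-severing protein, and *Tcf21*, a transcription factor. All embryos carried 1 copy of Pdgfb(CreERT2/+), a tamoxifen-inducible Cre driven by *Pdgfb* in ECs, and the R26(mTmG/+) reporter, which switches a cell to membrane GFP (mGFP) once Cre has recombined. ControlΔEC embryos were Wt1(+/+) and Wt1KOΔEC embryos were Wt1(loxP/loxP), so that the genotypes differed in the floxed allele as well as in its deletion, and the effects of the allele and of the deletion cannot be told apart. Cre was induced by oral tamoxifen given to the dams (75 mg/kg, E11.5-13.5), mGFP+ cells were sorted from the ventricles at E15.5, and 3 libraries were sequenced from each genotype; how many embryos made up a library is not given in the sources used here.

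Fibroblasts of the developing heart come mainly from the epicardium and fill the space between myocytes and vessels with interstitial matrix. Small leucine-rich proteoglycans such as decorin (*Dcn*) and lumican (*Lum*) sit on collagen fibrils and set their spacing, and periostin (*Postn*) and dermatopontin (*Dpt*) bind collagen and other matrix proteins. *Tcf21* is required in epicardial cells for the fibroblast lineage. Several of these genes are not exclusive to fibroblasts, and cells were sorted by mGFP alone as far as the sources state. The paper counts *Dcn* and *Rcn3*, with *Col1a1* and *Col3a1*, among venous markers that were overexpressed in Wt1KOΔEC. It lists *Gsn*, *Dkk3*, *Cthrc1* and also *Col1a1* as fibroblast genes.

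The deposited expected counts summed to between 26037324 and 44779020 per library. Library identifiers begin with AT in all ControlΔEC and with AU in all Wt1KOΔEC libraries. What these prefixes stand for is not stated, and a difference tied to them cannot be told apart from genotype. *Rn18s* took between 13.2% and 15.3% of the counts in ControlΔEC and between 21.1% and 26.5% in Wt1KOΔEC, and mitochondrially encoded genes between 5.21% and 6.61% and between 1.68% and 4.57%, so neither share overlapped between genotypes; their part in the results was not tested beyond a fit without these genes. *Wt1* was at 145, 109.5 and 149 CPM (each library's counts brought to a common total, with TMM factors) in ControlΔEC replicates 1, 2 and 3, and at 14.0, 18.4 and 21.3 CPM in Wt1KOΔEC. The 11 EC genes examined, *Pecam1*, *Cdh5* and *Kdr* among them, summed to between 7213 and 9131 CPM in ControlΔEC and between 7390 and 8699 CPM in Wt1KOΔEC. The 10 fibroblast genes summed to 502, 383 and 516 CPM in ControlΔEC replicates 1, 2 and 3 and to 549.7, 507 and 523 CPM in Wt1KOΔEC, which is between 0.0423% and 0.0547% of all counts. Their sum was between 27.7% and 37.3% of the CPM of *Pecam1* alone in the same library. The EC markers were thus present in every library, beside a low level of fibroblast genes. In these bulk samples, fewer cells of a type and less RNA per cell cannot be told apart.

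The 4 members with an unadjusted p under 0.05 between genotypes in edgeR were *Pamr1*, *Rcn3*, *Dcn* and *Cthrc1*. Of these, only *Pamr1* had an adjusted p below 0.05 there. The sequences of all 4 just before the canonical transcript are shown because *Wt1*, the deleted gene, encodes a DNA-binding factor. Each is the 250 bases before the start of the canonical transcript on GRCm39, 5′ to 3′ along the gene's strand, with CG dinucleotides in capitals. The *Cthrc1* window runs past the start of the annotated gene at 38940246.
*Pamr1* (chr2:102379810-102380059, plus strand): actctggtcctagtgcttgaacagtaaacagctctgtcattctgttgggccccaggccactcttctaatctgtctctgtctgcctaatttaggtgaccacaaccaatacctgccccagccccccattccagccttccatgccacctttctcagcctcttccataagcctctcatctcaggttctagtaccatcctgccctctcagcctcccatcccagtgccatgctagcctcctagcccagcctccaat
*Rcn3* (chr7:44741669-44741918, minus strand): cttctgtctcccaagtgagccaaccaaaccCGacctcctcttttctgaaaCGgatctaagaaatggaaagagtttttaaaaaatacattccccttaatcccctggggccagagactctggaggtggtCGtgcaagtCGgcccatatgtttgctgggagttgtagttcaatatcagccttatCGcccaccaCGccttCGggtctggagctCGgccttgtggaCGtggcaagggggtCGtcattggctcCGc
*Dcn* (chr10:97315025-97315274, plus strand): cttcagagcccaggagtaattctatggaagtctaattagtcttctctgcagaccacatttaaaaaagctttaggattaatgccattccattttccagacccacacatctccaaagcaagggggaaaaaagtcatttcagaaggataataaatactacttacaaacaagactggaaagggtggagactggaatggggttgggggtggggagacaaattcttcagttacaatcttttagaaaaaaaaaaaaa
*Cthrc1* (chr15:38940046-38940295, plus strand): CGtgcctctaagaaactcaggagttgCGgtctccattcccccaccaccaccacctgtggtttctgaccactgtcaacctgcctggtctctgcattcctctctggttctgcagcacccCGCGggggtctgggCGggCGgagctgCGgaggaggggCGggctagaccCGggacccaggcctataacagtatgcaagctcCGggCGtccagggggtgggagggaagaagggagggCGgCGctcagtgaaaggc
The *Pamr1* and *Dcn* sequences held no CG dinucleotide, *Rcn3* held 11 and *Cthrc1* held 13, against a median of 8 over 21770 protein-coding genes. *Lum*, the neighbour of *Dcn*, held none either. The letters GCGGGGGCG, a site type that EGR and WT1 proteins bind, were searched on both strands and occurred in none of the 10 members and in 2.39% of all these sequences. This says only that these letters are not in these windows, and the *Gsn* window lies within the annotated gene.

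Among the members *Pamr1* was the only differentially expressed gene (DEG), a term used here for log2 fold changes beyond 0.58 in either direction that passed edgeR's quasi-likelihood test at an adjusted p below 0.05. DEGs made up 0.0736% of the genes tested, 0.0491% higher and 0.0245% lower in Wt1KOΔEC, so that 0 members rose and 1 fell. *Pamr1* (ENSMUSG00000027188.9; chromosome 2, 102380060 to 102473386, plus strand) encodes a secreted protein related to serine proteases and first described in regenerating muscle. It was at 24.6, 38.0 and 30.8 CPM in ControlΔEC replicates 1, 2 and 3, and at 0, 0.168 and 0.633 CPM in Wt1KOΔEC replicates 1, 2 and 3. In counts these were 1102, 1877 and 889 against 0, 6 and 16. The genotypes lay far apart, with the lowest ControlΔEC library 38.9-fold above the highest Wt1KOΔEC library. The count of 0 in Wt1KOΔEC replicate 1 allows up to 0.0767 CPM (3 counts), and with that library set at this value the mean of ControlΔEC was 106-fold above that of Wt1KOΔEC. *Pamr1* fell by 7.0 on the log2 scale (standard error 0.86, 95% interval from -8.93 to -5.07, adjusted p = 0.0441, edgeR; n = 3 libraries per genotype). The direction was kept with single libraries left out, with log2 fold changes from -8.53 (without Wt1KOΔEC replicate 3) to -6.34 (without Wt1KOΔEC replicate 1), but the adjusted p-value then ranged from 0.0386 to 0.256 and passed the threshold in 2 of 6 fits, those without ControlΔEC replicate 2 and without Wt1KOΔEC replicate 1.

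*Pamr1* lies 2.48 Mb from *Wt1* on the same chromosome. Between them lie 21 genes tested, of which 19 are protein-coding, and only these 19 were counted. Of the 19, 0 were DEGs in edgeR and 5 had an unadjusted p under 0.05, 2 higher and 3 lower in Wt1KOΔEC. Over all genes tested, 13.1% had such a p-value (5.96% higher and 7.12% lower). The median log2 fold change of the 19 was near 0 (-0.00253). The nearest tested coding gene on the side away from *Wt1*, *Fjx1*, was at 1.15 CPM in ControlΔEC and 0.167 CPM in Wt1KOΔEC. Its libraries did not overlap either, at an adjusted p of 0.445 in edgeR. *Slc1a2*, 15.2 kb away on the other side, was at 0.791 and 1.297 CPM with overlapping libraries. Patterns over the 6 libraries, which hold the genotype difference itself, were compared across 10105 genes with a mean of at least 5 CPM. Closest to *Pamr1* was *Aoc3* (root mean square difference 1.03 of centred log2 values), followed by *Wt1* itself (1.32). *Aoc3*, a vascular amine oxidase, was at 16.4 CPM in ControlΔEC and 0.561 CPM in Wt1KOΔEC and was a DEG (adjusted p = 0.0204, edgeR).

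**Figure D1:**
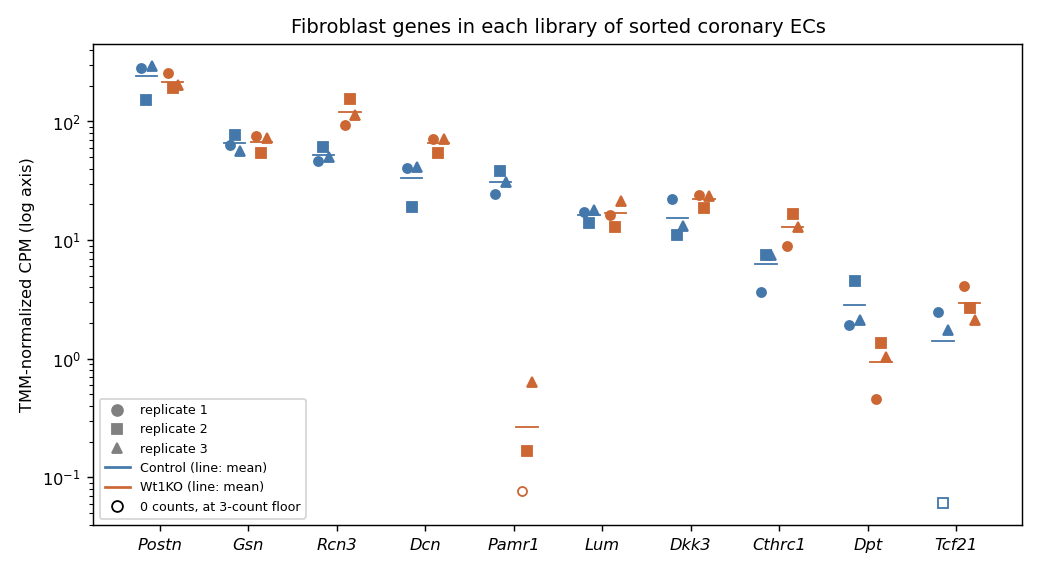
TMM-normalized CPM of the 10 fibroblast genes on a log axis, 1 point per library (symbol: replicate; blue: ControlΔEC; orange: Wt1KOΔEC) and a line at each mean over 3 libraries; open symbols are libraries with 0 counts drawn at the value of 3 counts. *Pamr1* separates the genotypes by over an order of magnitude on this axis, while *Postn*, *Gsn*, *Lum*, *Dkk3* and *Tcf21* overlap.

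*Rcn3* (ENSMUSG00000019539.12; chromosome 7, 44732333 to 44741668, minus strand) encodes a calcium-binding protein of the secretory pathway that takes part in collagen production. It was at 46.4, 60.9 and 50.6 CPM in ControlΔEC replicates 1, 2 and 3, and at 93.0, 154 and 114 CPM in Wt1KOΔEC. Every Wt1KOΔEC library was above every ControlΔEC library. Its log2 fold change was 1.20 (standard error 0.22, 95% interval from 0.71 to 1.68), which is 2.29-fold between the means, but with an adjusted p of 0.108 it was not a DEG in edgeR. DESeq2 gave 1.19 with an adjusted p of 7.54e-05. In edgeR it also passed when genes with at least 10 counts in every library were tested, with an adjusted p of 0.0348, and without any filter, with one of 0.0021. Without single libraries its log2 fold change stayed between 0.98 and 1.35. The gene model of an antisense transcript, *Gm45669*, overlaps *Rcn3* and had 0 counts in every library. The nearest tested coding genes on either side, *Prrg2* and *Fcgrt*, had log2 fold changes of 0.11 and 0.05.

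*Rcn3* belongs to the CREC family of calcium-binding proteins, and the other members *Rcn1*, *Rcn2*, *Calu* and *Sdf4* had log2 fold changes of 0.26, 0.12, -0.03 and 0.01 with overlapping libraries. The ratio of *Rcn3* counts to the summed counts of these 4 genes, which does not depend on library scaling, was 0.0339, 0.0566 and 0.0380 in ControlΔEC replicates 1, 2 and 3 and 0.0766, 0.117 and 0.0881 in Wt1KOΔEC. An exact permutation test between genotypes gave p = 0.1, the lowest it can give with 3 libraries per genotype. This ratio was chosen after the values had been seen, so that p-value is not read as support. Among 14 genes of collagen folding and processing, *Rcn3* included, 0 were DEGs in edgeR, 12 had a positive and 2 a negative log2 fold change, and the median was 0.27. DESeq2 called 2 of the 14, both higher, where 2.2% of all genes were called higher. Beside *Rcn3* this was *P3h1*, a collagen prolyl hydroxylase. It was at 49.2 ± 2.89 CPM in ControlΔEC and 83.9 ± 12.0 CPM in Wt1KOΔEC (SD, n = 3, adjusted p = 0.144 in edgeR). *P4hb*, *Serpinh1* and *Plod1*, the most abundant of the list, had log2 fold changes of 0.29, 0.24 and -0.17, and *P4ha1* one of 0.55. *Rcn3*, *P3h1*, *P4hb* and *P4ha1* were the 4 of the 14 that were higher in every Wt1KOΔEC library, against 10.3% of all genes tested. In the other direction there were 0.

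*Dcn* (ENSMUSG00000019929.17; chromosome 10, 97315275 to 97358155, plus strand) was at 40.7, 19.0 and 41.0 CPM in ControlΔEC replicates 1, 2 and 3 and at 70.8, 54.7 and 71.6 CPM in Wt1KOΔEC. The genotypes did not overlap, and ControlΔEC replicate 2 lay at less than 20 CPM, apart from the other two. The log2 fold change was 0.97 (standard error 0.29, 95% interval from 0.30 to 1.63), and *Dcn* was not a DEG in edgeR (adjusted p = 0.242) but was one in DESeq2 (adjusted p = 0.0444) and in edgeR without the filter on low counts (adjusted p = 0.0461). Without ControlΔEC replicate 2 it was 0.69, with an adjusted p of 0.209 in edgeR. *Lum* (ENSMUSG00000036446.6; chromosome 10, 97400990 to 97408577, plus strand) starts 42.8 kb beyond the end of *Dcn* and encodes a proteoglycan of the same family. It was at 17.3, 14.1 and 17.9 CPM in ControlΔEC replicates 1, 2 and 3 and at 16.3, 12.9 and 21.4 CPM in Wt1KOΔEC, with overlapping genotypes. Its log2 fold change was 0.04, with a 95% interval from -0.58 to 0.66 that covers fold differences from 0.668 to 1.58.

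Within each library, *Dcn* counts over *Lum* counts came to 2.35, 1.35 and 2.29 in ControlΔEC replicates 1, 2 and 3 and to 4.35, 4.25 and 3.34 in Wt1KOΔEC, with means of 2.00 ± 0.562 and 3.98 ± 0.556 (SD, n = 3). The 3 ratios of Wt1KOΔEC all lay above those of ControlΔEC, and the exact permutation test again gave p = 0.1, its lowest possible value. The pair was chosen after its values had been seen, so that p-value is not read as support. Of 12 small leucine-rich proteoglycan genes, 8 were tested and 0 were DEGs in edgeR. *Bgn*, the most abundant, was at 167 ± 47.9 CPM in ControlΔEC and 242 ± 59.5 CPM in Wt1KOΔEC with overlapping libraries. *Fmod* was at 7.39, 0 and 2.63 CPM in ControlΔEC replicates 1, 2 and 3 and at 15.3, 7.72 and 9.14 CPM in Wt1KOΔEC, and *Aspn*, at 11.3 ± 8.10 and 4.42 ± 1.19 CPM, had the opposite sign; neither was a DEG. The family therefore held genes on both sides of 0, with 6 positive and 2 negative log2 fold changes and a median of 0.51.

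**Figure D2:**
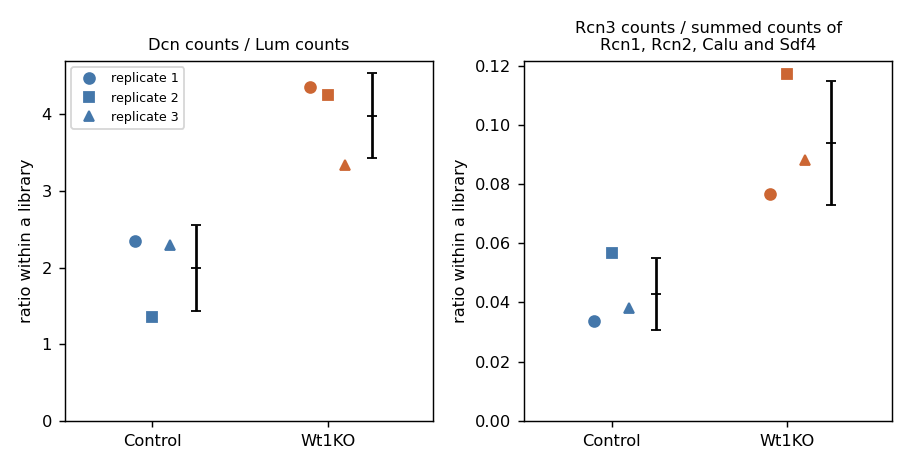
Left, *Dcn* counts divided by *Lum* counts in each library; right, *Rcn3* counts divided by the summed counts of *Rcn1*, *Rcn2*, *Calu* and *Sdf4*. Coloured symbols are the 3 replicates of each genotype and black bars the mean ± SD; in both panels the Wt1KOΔEC libraries lie above the ControlΔEC libraries, from 3.34 against 2.35 upwards on the left.

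*Cthrc1* (ENSMUSG00000054196.8; chromosome 15, 38940246 to 38950518, plus strand), a secreted protein with a short collagen-like stretch, was at 3.66, 7.48 and 7.56 CPM in ControlΔEC replicates 1, 2 and 3 and at 9.004, 16.6 and 12.9 CPM in Wt1KOΔEC. The genotypes did not overlap, although the lowest Wt1KOΔEC and the highest ControlΔEC library were close. The genotypes differed by 1.04 ± 0.40 on the log2 scale (± standard error), which was not a DEG in edgeR (adjusted p = 0.327) or in DESeq2 (adjusted p = 0.148). With single libraries left out it ranged from 0.77 to 1.24. The neighbouring genes *Fzd6* and *Slc25a32* had log2 fold changes of -0.08 and -0.37.

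*Dpt* (ENSMUSG00000026574.6; chromosome 1, 164624187 to 164654544, plus strand) was at 1.92, 4.56 and 2.11 CPM in ControlΔEC replicates 1, 2 and 3 and at 0.460, 1.35 and 1.03 CPM in Wt1KOΔEC. It was lower in every Wt1KOΔEC library, on 86, 225 and 61 counts against 18, 48 and 26. The log2 fold change of -1.60 had a standard error of 0.85 and an adjusted p of 0.479 in edgeR, and it was -1.09 without ControlΔEC replicate 2. *Tcf21* (ENSMUSG00000045680.9; chromosome 10, 22692803 to 22696073, minus strand) was at 2.502, 0 and 1.73 CPM in ControlΔEC replicates 1, 2 and 3 and at 4.12, 2.67 and 2.14 CPM in Wt1KOΔEC. ControlΔEC replicate 2 had no count of it in a library of 44736496, which allows up to 0.0608 CPM, while the other 5 libraries had between 50 and 161 counts. Its log2 fold change was 1.08 with a 95% interval from -2.01 to 4.16, and 0.49 without ControlΔEC replicate 2, so its direction was not resolved by these 6 libraries. The protocol marks no strand, so reads of a member and of an antisense transcript over it cannot be told apart; *Gm10824*, antisense to *Tcf21*, had 0 counts in every library, and the antisense models over *Dpt* and *Postn* (*Gm32652* and *Gm31095*) were not analysed here.

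*Postn* (ENSMUSG00000027750.17; chromosome 3, 54268501 to 54298471, plus strand) was the most abundant member in CPM. It was at 280.1, 152 and 294 CPM in ControlΔEC replicates 1, 2 and 3 and at 256, 190.8 and 204 CPM in Wt1KOΔEC, and made up between 37.7% and 57.0% of the members' summed CPM. The genotypes overlapped, with a log2 fold change of -0.16 (95% interval from -0.73 to 0.41, adjusted p = 0.876 in edgeR). *Gsn* (ENSMUSG00000026879.15; chromosome 2, 35145967 to 35197917, plus strand) was at 63.1, 76.3 and 56.8 CPM in ControlΔEC replicates 1, 2 and 3 and at 75.7, 54.4 and 72.1 CPM in Wt1KOΔEC. Its log2 fold change was 0.04 with the narrowest interval of the 10, from -0.39 to 0.48, or between 0.763-fold and 1.39-fold. The other gelsolin-family genes tested, *Flii*, *Capg*, *Svil*, *Avil* and *Vil1*, overlapped between genotypes as well. *Dkk3* (ENSMUSG00000030772.7; chromosome 7, 111712904 to 111758760, minus strand) was at 22.05, 11.0 and 13.3 CPM in ControlΔEC replicates 1, 2 and 3 and at 24.1, 18.8 and 23.4 CPM in Wt1KOΔEC. The libraries overlapped through ControlΔEC replicate 1, and the log2 fold change of 0.52 (95% interval from -0.17 to 1.20) had an adjusted p of 0.533 in edgeR. *Dkk2*, the other Dickkopf gene tested, had one of -0.10, and 3 of the 5 genes of that family had no count in any library.

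**Figure D3:**
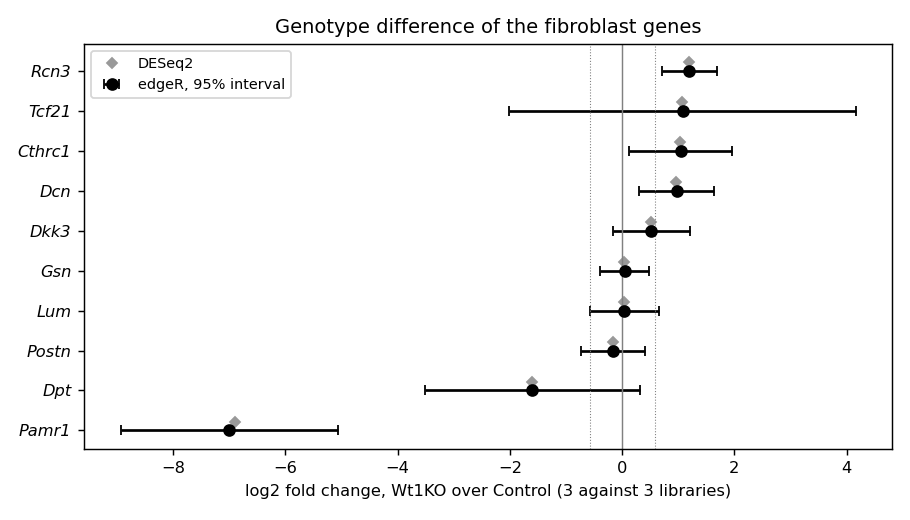
Log2 fold change of each fibroblast gene, Wt1KOΔEC over ControlΔEC (black points: edgeR with 95% intervals; grey diamonds: DESeq2; dotted lines: the limit of 0.58 in either direction). The intervals of *Rcn3*, *Dcn*, *Cthrc1* and *Pamr1* do not reach 0, and that of *Tcf21* runs from -2.01 to 4.16.

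In all, 3 members (*Dcn*, *Rcn3* and *Cthrc1*) were higher and 2 (*Pamr1* and *Dpt*) lower in all Wt1KOΔEC libraries, where 10.3% and 8.97% of all genes tested did so, 19.3% together. An unadjusted p under 0.05 in edgeR was reached by 4 members, 3 higher and 1 lower, against 13.1% of all genes (5.96% higher and 7.12% lower). The same 4 also passed the fold limit, against 10.1% of all genes (4.17% higher and 5.96% lower). In DESeq2, 3 members were DEGs (*Rcn3* and *Dcn* higher, *Pamr1* lower), against 4.83% of all genes (2.2% higher and 2.63% lower). The median log2 fold change was 0.28 over the 10 members and -0.03 over all genes tested. Scaling by library totals alone moved the median of all genes by -0.15; relative to each scaling's median, 7 members were above and 3 below 0 under both.

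Replicates of a genotype did not order the members alike. ControlΔEC replicate 2 was the lowest of its genotype for *Dcn*, *Lum*, *Postn*, *Tcf21* and *Dkk3*, and the highest for *Dpt*, *Gsn*, *Rcn3* and *Pamr1*. In Wt1KOΔEC, replicate 2 was the lowest for *Dcn*, *Lum*, *Postn*, *Dkk3* and *Gsn*, and the highest for *Dpt*, *Cthrc1* and *Rcn3*. The coefficient of variation over the 3 ControlΔEC libraries ran from 12.6% for *Lum* to 90.8% for *Tcf21*. *Rgs5*, a pericyte gene, was also low in ControlΔEC replicate 2, at 26.8 CPM against 165 and 164 CPM in replicates 1 and 3, and the macrophage gene *Csf1r* was high there, at 327 CPM against 153 and 103 CPM; their part in the spread of the members was not tested.

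**Figure D4:**
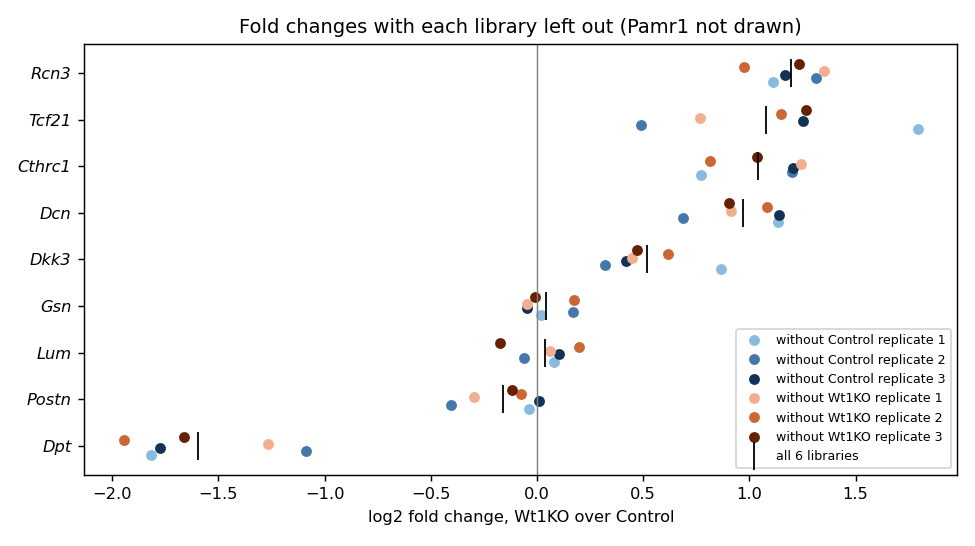
Log2 fold change of 9 fibroblast genes with all 6 libraries (black bars) and after omitting 1 library at a time (coloured points); *Pamr1*, between -8.53 and -6.34, is not drawn. Leaving out ControlΔEC replicate 2 lowered *Dcn* to 0.69, *Tcf21* to 0.49 and *Postn* to -0.40, and moved *Dpt* to -1.09.

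Levels between genes were compared as CPM per kb of exonic length. In ControlΔEC, *Postn* (27.7 ± 8.96 CPM per kb) and *Rcn3* (26.2 ± 3.71) stood first and overlapped, followed by *Gsn* (6.21 ± 0.946; SD, n = 3). *Pamr1*, *Cthrc1*, *Dcn*, *Lum* and *Dkk3* followed between 4.36 and 2.26 CPM per kb, each overlapping the next, and *Dpt* and *Tcf21* were last, at 0.643 and 0.518. In Wt1KOΔEC, *Rcn3* was first at 60.0 ± 15.6 CPM per kb, above *Postn* at 24.8 ± 3.96 in every library, and *Pamr1* was last at 0.0374. By this measure *Rcn3* ranked 1024 of the genes tested in ControlΔEC and 464 in Wt1KOΔEC, *Postn* 953 and 1188, *Dcn* 7159 and 4703, and *Pamr1* 5304 and 15642. The exons of *Dcn* and *Gsn* in the annotation span 13033 and 10535 bases in all, against 6104 and 2622 bases in the canonical transcript, so the order depends on the length used. Per kb of canonical transcript, *Postn* stood above *Rcn3* in every ControlΔEC library, at 76.5 ± 24.8 against 35.3 ± 5.01 CPM per kb, and in Wt1KOΔEC both overlapped.

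Of 24 other genes known from fibroblasts, 1 was a DEG in edgeR, *Col1a1*, the main fibrillar collagen chain, at 114 ± 12.5 CPM in ControlΔEC and 289.8 ± 40.0 CPM in Wt1KOΔEC (SD, n = 3; log2 fold change 1.34, adjusted p = 0.0441). An unadjusted p under 0.05 was reached by 10 higher and 1 lower gene, where 5.96% and 7.12% of all genes tested did so, and 7 were DEGs in DESeq2, all higher, against 4.83% of all genes (2.2% higher). The median log2 fold change of the list was 0.37, with 16 genes positive and 8 negative. Its collagens *Col3a1*, *Col1a2* and *Col5a2* were at 319, 104 and 166 CPM in ControlΔEC and at 624, 190.0 and 278 CPM in Wt1KOΔEC, without overlap. The other 4 collagen genes of the list overlapped, with log2 fold changes of 0.24 for *Col5a1*, -0.07 for *Col6a1*, -0.27 for *Col6a2* and -0.49 for *Col6a3*. *Ddr2*, *Prrx1*, *Fap* and *Meox1*, at -0.71, -1.09, -2.06 and -0.50, were negative and overlapped as well; these 8 genes were named after their values were seen. *Mfap4*, a microfibril-associated protein, was at 6.22 ± 0.701 and 17.1 ± 3.23 CPM and *Loxl1*, a lysyl oxidase that cross-links elastin, at 2.65 ± 1.18 and 10.5 ± 3.99 CPM. *Wif1* had no count in any ControlΔEC library and was at 1.305, 0.505 and 1.15 CPM in Wt1KOΔEC replicates 1, 2 and 3. *Pdgfra*, the receptor by which cardiac fibroblasts are often recognised, was at 10.8, 9.50 and 13.1 CPM in ControlΔEC replicates 1, 2 and 3 and at 26.4, 19.0 and 16.2 CPM in Wt1KOΔEC (adjusted p = 0.258 in edgeR), and is named here after its values were seen. The 2 most abundant other genes, *Fstl1* and *Fbln2*, had log2 fold changes of 0.43 and 0.30. *Serpinf1* was the one gene of the list that was lower in every Wt1KOΔEC library, at 34.8 ± 2.53 and 21.6 ± 5.73 CPM, and it too was chosen after its values were seen.

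The summed level of these 24 genes was between 1926 and 2143 CPM in ControlΔEC and between 2678 and 3624 CPM in Wt1KOΔEC. The summed markers of other cells are given beside it. The 9 epicardial genes summed to between 37.8 and 52.7 CPM in ControlΔEC and between 67.2 and 85.2 CPM in Wt1KOΔEC, with 4 of 9 higher in every Wt1KOΔEC library, against 10.3% of all genes tested. Among these were *Upk3b* (2.03 ± 1.46 and 9.05 ± 3.43 CPM) and *Msln* (0.578 ± 0.674 and 9.79 ± 8.24 CPM), while *Aldh1a2* and *Dmkn* had log2 fold changes of -0.05 and -0.34 and overlapped. *Clu*, the most abundant epicardial gene of the list, made up a good part of the sum. It was at 30.7 ± 5.17 and 36.5 ± 14.8 CPM with overlapping libraries. The summed level of 10 mural genes was between 477 and 643 CPM in ControlΔEC and between 329 and 389 CPM in Wt1KOΔEC. Of the 9 tested, 4 were lower in every Wt1KOΔEC library, against 8.97% of all genes, and 0 were DEGs in edgeR. For 4, all lower, the unadjusted p was under 0.05 in edgeR, against 7.12% of all genes. DESeq2 called 3, all lower, against 2.63% of all genes. The log2 fold change was negative for 8 and positive for 1 of the 9, with a median of -0.41. *Rgs5* was at 119 ± 79.4 and 20.9 ± 4.00 CPM, and *Pdgfrb* at 56.8 ± 14.95 and 23.9 ± 8.47 CPM. *Acta2* and *Tagln*, the 1 positive gene, overlapped, with log2 fold changes of -0.04 and 0.92. The 9 macrophage genes summed to between 321 and 960.3 CPM and to between 260 and 355 CPM, which overlapped. All 9 had a negative log2 fold change, with a median of -0.76. An unadjusted p under 0.05 was reached by 5, all lower, against 7.12% of all genes. Of the 9, 2 were lower in every Wt1KOΔEC library, against 8.97% of all genes. In edgeR 0 were DEGs, and in DESeq2 2 were, both lower, against 2.63% of all genes. The 6 endocardial genes summed to between 264 and 349.6 CPM and to between 582 and 712 CPM, a sum that *Plvap*, itself a DEG (68.1 and 338 CPM), made up in good part. Cardiomyocyte sums overlapped, between 218 and 301 CPM and between 178 and 393 CPM. Erythroid sums overlapped too, between 5192 and 11167 CPM and between 3642 and 6189 CPM. Of the 7 erythroid genes, 2 had a positive and 5 a negative log2 fold change. Without overlap, *Hbb-y* was higher in Wt1KOΔEC (26.2 ± 18.1 and 156 ± 46.6 CPM) and *Alas2* lower (139 ± 78.1 and 62.9 ± 11.6 CPM). Both were DEGs in DESeq2 (adjusted p = 0.0132 and 0.0330), against 4.83% of all genes, but not in edgeR (adjusted p = 0.128 and 0.243). Of the genes in these lists of other cells and of other fibroblast genes, *Plvap* and *Col1a1* were the only DEGs in edgeR, and the part that other cells had in the levels of the fibroblast genes was not tested.

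**Figure D5:**
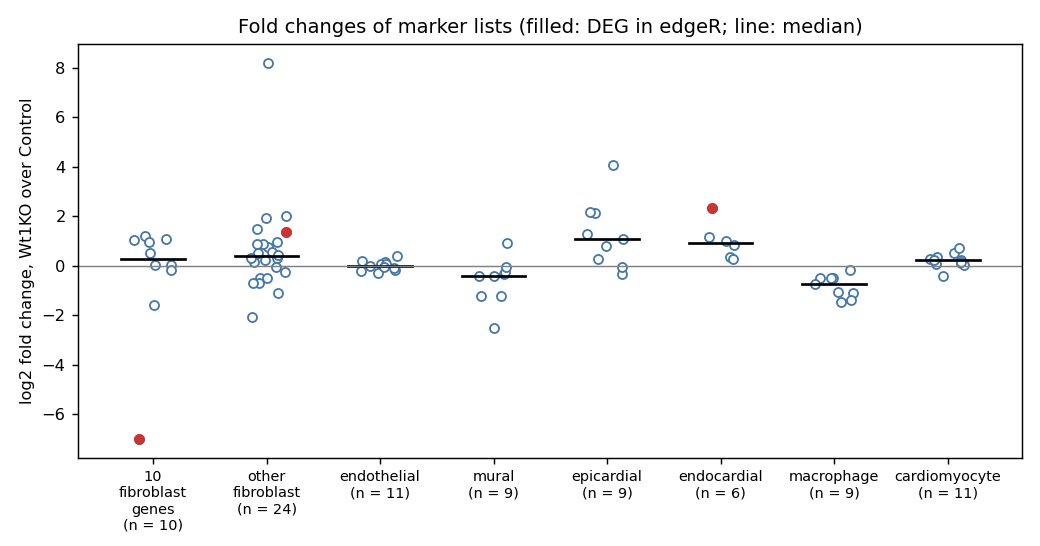
Log2 fold change of each tested gene of 8 lists, Wt1KOΔEC over ControlΔEC (filled: DEG in edgeR; line: median of the list; n: genes tested). The topmost point is *Wif1*, whose fitted value depends on the prior count because it had no count in ControlΔEC; endothelial genes lie between -0.29 and 0.41, and the medians of the 10 fibroblast genes and the other fibroblast genes are 0.28 and 0.37.

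A pattern over the 6 libraries holds the genotype difference itself, and how closely other genes match one another was not examined. The genes with the closest patterns were sought for the 3 members with higher values. For *Dcn* they were *Ak4* (root mean square difference 0.0744 of centred log2 CPM), *Samd9l* (0.163) and *Rpe* (0.170). *Bace2* and *Kank1* were closest to *Cthrc1*, at 0.167 and 0.189, and *Igfbp5*, *Irf2bpl* and *Gm28592* to *Rcn3*, at 0.172 to 0.191. None of these genes was itself a member of the fibroblast lists, and *Igfbp5*, an insulin-like growth factor binding protein, was at 130 CPM in ControlΔEC and 271 CPM in Wt1KOΔEC (adjusted p = 0.108 in edgeR).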

How the data were processed

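RNA was sequenced from mGFP+ cells sorted from E15.5 ventricles, with 3 libraries each from ControlΔEC and Wt1KOΔEC, made by SMARTseq2 with 12 cycles of cDNA amplification and no molecular identifiers. The authors mapped reads with STAR 2.7.8a to GRCm39 and quantified GENCODE vM27 genes with RSEM 1.3.0, as the paper's methods state; the submitters' processing notes name GRCm38. What the authors deposited were expected counts per gene from RSEM, all whole numbers, not normalized and used unchanged. A gene entered the tests if 2 or more libraries held 10 or more counts of it. Counts were scaled by TMM and tested for genotype with edgeR 4.0.16 (R 4.3.3) by the quasi-likelihood test, with Benjamini-Hochberg adjustment over all genes tested; DEGs passed 0.05 there and lay beyond 0.58 (log2) in either direction, the study's fold limit. The study's DESeq2 (1.42.0 here) and limma-voom (3.58.1) were alternatives. Standard errors were obtained by dividing each log2 fold change by the root of its F statistic. The replicates are labelled as biological, and p-values measure the spread between these libraries. Intervals and the floor of 3 counts cover counting error or library spread only. The protocol marks no strand. Positions, lengths and upstream sequence came from GENCODE vM39 on GRCm39. Named were all 10 members, DEGs and the 3 most abundant genes of each list, up to 5 further genes per list without overlap and with an unadjusted p under 0.05, genes with the closest pattern (log2 of CPM plus 0.5) and neighbours; members and lists were chosen with earlier results of these data known. One gene named by this rule is not reported here. The steps were tested on simulated data.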

Additional observations from a re-analysis of the deposited data

How the results depend on the processing

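Of the 10 members, 1 was a DEG in edgeR and also with RLE, upper-quartile or no scaling factors, filterByExpr, no fold change limit, and without *Rn18s* and mitochondrial genes (an alternative added after seeing the data), *Pamr1* each time. DESeq2 and edgeR without a filter called 3, limma-voom and the replicate block 0, and an unadjusted p 4. Without single libraries the count ran from 0 to 1. Here and below, genes counted by unadjusted p also passed the fold change limit. With at least 10 counts in every library, *Pamr1* was not tested because of its low counts in Wt1KOΔEC, and *Rcn3* was the 1 called. Over all genes the 12 DEGs became 767 with DESeq2, 296 without a filter, 113 with at least 10 counts in every library, 5 with the replicate block, 1652 by unadjusted p, and between 2 (without Wt1KOΔEC replicate 3) and 37 (without ControlΔEC replicate 3) without single libraries. Of the 12, 8 were higher and 4 lower, against 5 and 6 by library totals only. For the other fibroblast genes the 1 DEG became 7 with DESeq2, 4 without a filter, 3 with at least 10 counts in every library, 10 by unadjusted p, 0 by library totals only and with the replicate block, and 0 or 1 without single libraries (1 only without ControlΔEC replicate 2). Family genes other than members gave 0 DEGs with edgeR, 1 with DESeq2, 1 without a filter and 2 by unadjusted p, and 0 without single libraries. *Pamr1* kept its direction but not its call with limma-voom (-8.26, adjusted p = 0.0964) and the replicate block (-7.28, adjusted p = 0.0588). *Lum* turned to -0.11 by library totals only, -0.06 without ControlΔEC replicate 2 and -0.17 without Wt1KOΔEC replicate 3 (highest 0.20 without single libraries). *Gsn* turned to -0.11 by library totals only, -0.05 without ControlΔEC replicate 3, -0.049 without Wt1KOΔEC replicate 1 and -0.01 without Wt1KOΔEC replicate 3 (highest 0.18), and *Postn* to 0.0074 without ControlΔEC replicate 3 (lowest -0.40, without ControlΔEC replicate 2). The other 7 members and *Wt1* (from -3.05 to -2.76 without single libraries) kept their direction in every fit. In the order of the members, 3 of 10 kept their place by CPM and 6 by canonical transcript length, the latter chosen after seeing the data. The causes were not tested. Deviations of same-numbered libraries correlated between 0.00448 and 0.0566, and 3 of 6 libraries correlated best with their own number, so the numbers were not taken to pair the libraries.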
